A study of Mus musculus with 2 samples.

Results

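Nitric oxide and superoxide are made in the heart by a small set of enzymes, and the 9 genes described here encode 3 nitric oxide synthases (Nos1, Nos2, Nos3), 2 catalytic NADPH oxidase subunits (Cybb, Nox4), 3 of their partner subunits (Cyba, Ncf1, Ncf4) and xanthine oxidoreductase (Xdh). They were chosen by name as sources of oxidants and of nitric oxide, and all 9 were found among the 55401 gene identifiers of the count tables by their GENCODE M21 symbols. The libraries came from hearts of C57BL/6 mice with transverse aortic constriction (TAC), an operation that narrows the aorta and makes the left ventricle pump against high pressure. One group had TAC alone (called the TAC library) and the other had TAC with dioscin, a steroidal saponin from plants, given for 4 weeks (called the dioscin library). Each group held 1 library, assigned by its treatment label, while the protocol text names dioscin for both samples alike. Neither the age of the mice nor the number of hearts behind a library is given in the labels, both groups carry the constriction, and hearts without surgery were not analysed here. The comparison asks whether these genes are expressed at other levels in the constricted heart when dioscin is given.

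NADPH oxidases pass electrons from NADPH across a membrane to oxygen. The NOX2 enzyme of phagocytes, whose catalytic subunit is the product of Cybb, sits in the membrane with p22phox (Cyba) and is switched on when cytosolic subunits, p47phox (Ncf1) and p40phox (Ncf4) among them, join it, whereas NOX4 needs p22phox but no cytosolic subunit and releases mainly hydrogen peroxide. Nitric oxide synthases make nitric oxide from arginine. The endothelial form (Nos3) acts in vessels and muscle, the neuronal form (Nos1) sits at the calcium stores of heart muscle cells, and the inducible form (Nos2) appears in inflammation. Xanthine oxidoreductase ends purine breakdown and, in its oxidase form, passes electrons to oxygen.

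Reads counted in genes numbered 16782741 for TAC and 17612259 for dioscin. Heart muscle transcripts were abundant in both, with Myh6, the main cardiac myosin, at 20675 and 22659.5 CPM, and genes of the mitochondrial genome held 31.6% of gene counts with TAC alone and 25.5% with dioscin. The CPM of a gene is its count divided by the scaled size of its library. The libraries stood apart in other tissue markers. The summed level of 6 atrial muscle markers was 609 CPM with TAC alone and 17474 CPM with dioscin, that of 8 mesothelial markers 18.5 and 153 CPM, and that of 7 adipocyte markers 0.811 and 31.1 CPM. With TAC alone, Nppa held 588 of the atrial CPM and Wt1 held 16.0 of the mesothelial CPM. Other atrial markers were near absent there, with 1 and 12433 counts for Sln, 13 and 30109 for Myl7 and 55 and 33721 for Myl4. Msln, a mesothelial marker, had 4 and 820 counts. Mybphl, Krt8, Krt18, Plin1, Cidec, Lep and Retn of these lists were at 0 counts in the TAC library. The part of these tissues in the results below was not tested, and with 1 library a group no result can be given without either of them.

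By the size of the difference, 2 of the 9 genes were higher in the dioscin library (Nox4 and Ncf1), 2 were lower (Nos2 and Ncf4), 4 lay within 2-fold of the TAC library (Nos3, Cybb, Cyba and Xdh) and 1 (Nos1) was below the level at which a call was made. A gene passed this size rule, and was called, when it had 1 CPM or more in either library, a ratio of 2 or more in either direction and a 95% counting interval that left out 1. Over all 15697 genes at that level, 10.5% were called higher, 8.77% lower and 19.3% in either direction. The median log2 ratio of the 8 genes at or above 1 CPM was -0.09, beside 0.01 for all genes at that level. The ratio is that of the dioscin over the TAC library after scaling. The interval covers counting error and not the difference between mice, so none of the values is a test of the treatment. In whole tissue, fewer cells of a type and less RNA per cell cannot be told apart.

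**Figure D1:**
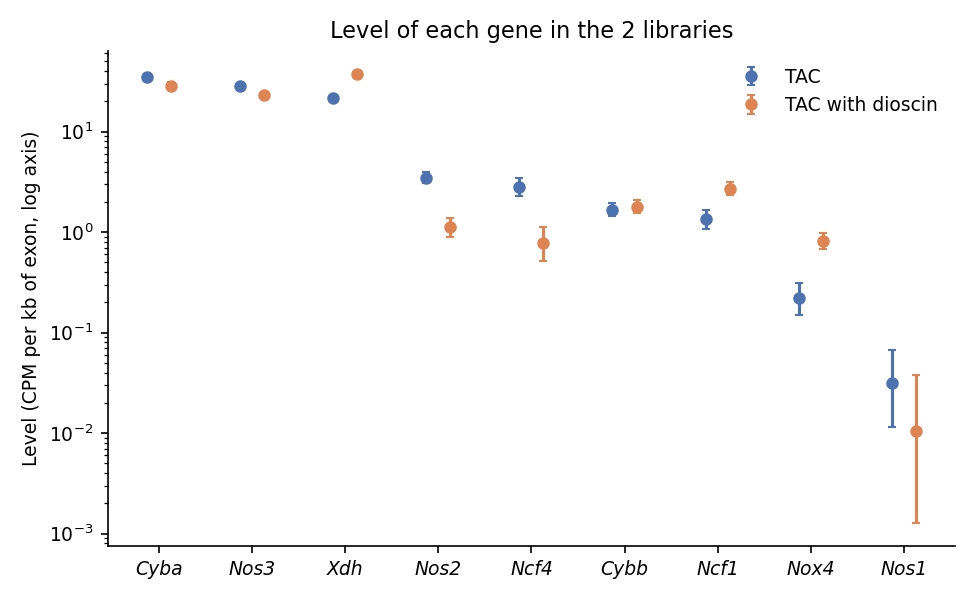
Level of the 9 genes in each library, in CPM per kb of exon on a log axis, ordered by the TAC library. Points are single libraries and bars are exact 95% Poisson intervals of the count. Cyba, Nos3 and Xdh lie above 20 in both libraries, and the other genes lie below 4.

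Per kb of exon, Cyba was the most abundant of the 9 in the TAC library with 34.7 CPM per kb, followed by Nos3 with 28.6 and Xdh with 21.4. The next were Nos2 with 3.49, Ncf4 with 2.81, Cybb with 1.68 and Ncf1 with 1.34 CPM per kb, and the lowest were Nox4 with 0.219 and Nos1 with 0.0312. The Poisson intervals of Nos2 and Ncf4 overlapped, as did those of Cybb and Ncf1, so these neighbours were not separated by counting error. In the dioscin library Xdh came first with 37.1 CPM per kb, ahead of Cyba with 28.6 and Nos3 with 23.1. Ncf1 stood at 2.71, Cybb at 1.79, Nos2 at 1.13, Nox4 at 0.814, Ncf4 at 0.781 and Nos1 at 0.0105 CPM per kb. The intervals of Nos2 and Nox4 overlapped, and so did those of Nox4 and Ncf4. With the longest coding transcript as the length, Xdh passed Nos3 in the TAC library (42.7 CPM per kb) and Nox4 stood at 0.494 there and at 1.84 in the dioscin library, more than 1.5 times its level over all exons.

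**Figure D2:**
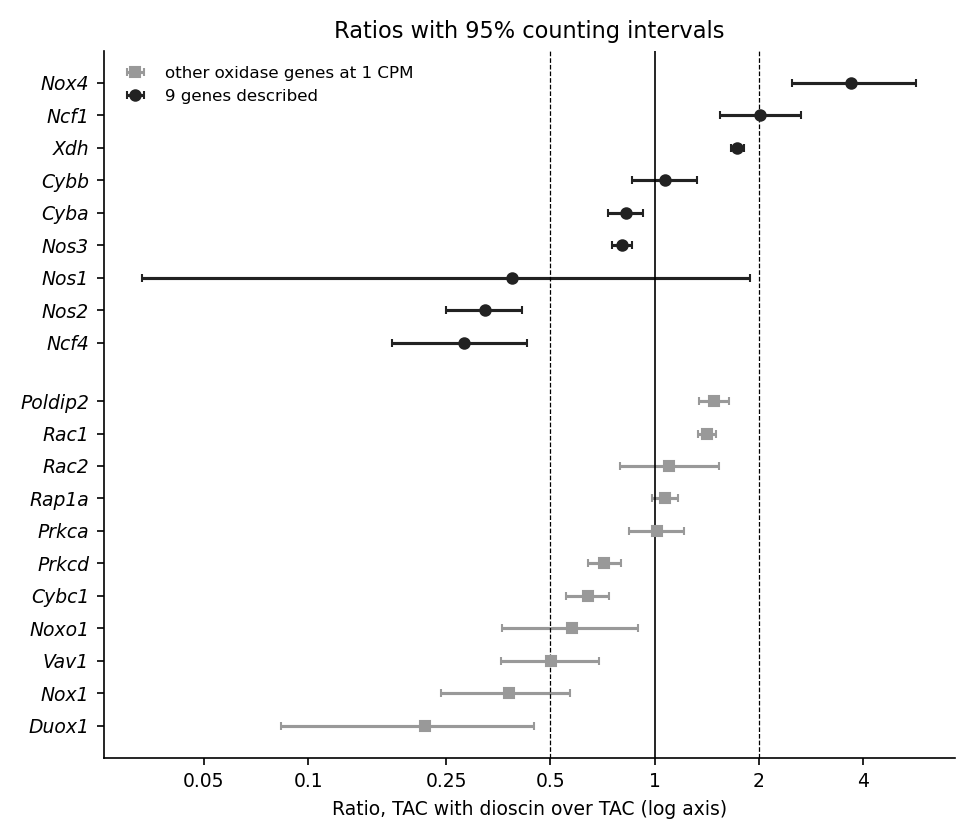
Ratio of the dioscin over the TAC library for the 9 genes (black circles) and for 11 other oxidase genes at or above 1 CPM (grey squares), on a log axis. Bars are exact 95% counting intervals, the solid line marks no difference and dashed lines mark 2-fold. Nox4 lies to the right of the upper dashed line, Nos2 and Ncf4 to the left of the lower one, and Ncf1 sits on the upper one with an interval of 1.55 to 2.65.

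Among the catalytic oxidase subunits, Nox4 differed and Cybb did not pass the size rule. Nox4 (ENSMUSG00000030562.17; chromosome 7, 87246096 to 87398710 on the plus strand of GRCm38) had 32 counts with TAC alone and 118 with dioscin, or 1.85 and 6.89 CPM. It was 3.68-fold higher in the dioscin library (counting interval 2.50 to 5.68), and 3.52% of all genes at or above 1 CPM had a ratio that high. Cybb (ENSMUSG00000015340.10; chromosome X, 9435252 to 9487771, minus strand) had 168 and 178 counts, 9.73 and 10.4 CPM, a ratio of 1.07 with an interval from 0.861 to 1.33. The ratio of Nox4 to Cybb counts within a library, which no scaling of the libraries changes, was 0.190 with TAC alone and 0.663 with dioscin, 3.48 times as high (2.19 to 5.61). Per kb of exon, Nox4 made up 11.6% of the summed Nox4 and Cybb level with TAC alone and 31.2% with dioscin, or 19.4% and 45.6% per kb of the longest coding transcript. Cybb thus had the higher value of the pair in both libraries by either length. By the longest coding transcript the dioscin values were close, 2.19 for Cybb and 1.84 for Nox4 in CPM per kb. No counting interval was computed for the pair by that length.

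The membrane partner shared by both enzymes showed a small difference. Cyba (ENSMUSG00000006519.11; chromosome 8, 122424776 to 122432930, minus strand) had 623 counts with TAC alone and 509 with dioscin. Its levels were 36.1 and 29.7 CPM and its ratio 0.824 (0.732 to 0.928), which stays inside 2-fold. Per kb of exon Cyba stood far above the catalytic subunits, with Cybb at 0.0482 of its level with TAC alone and 0.0626 with dioscin.

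Ncf1 and Ncf4, cytosolic subunits of the phagocyte oxidase, went in opposite directions. Ncf1 (ENSMUSG00000015950.13; chromosome 5, 134220053 to 134229625, minus strand), the organiser subunit, had 85 counts with TAC alone and 170 with dioscin, 4.92 and 9.93 CPM. Its ratio of 2.01 (1.55 to 2.65) lay at the 2-fold limit, and with scaling by total counts or by DESeq2 size factors it no longer passed (log2 ratios 0.93 and 0.996), nor with a pseudocount of 5 (0.97). Gtf2ird2, on the other strand, covers 11.1% of the exonic length of Ncf1 and had 250 and 248 counts. The kit does not mark strand, so reads from that stretch could come from either gene. Whether such reads entered the counts depends on the strand setting of the read counting, which is not given. Ncf4 (ENSMUSG00000071715.12; chromosome 15, 78244801 to 78262580, plus strand), whose product binds a phosphoinositide of the phagosome membrane, had 98 counts with TAC alone and 27 with dioscin. It went from 5.68 to 1.58 CPM, 3.55-fold lower (2.33 to 5.73), and 2.44% of genes at or above 1 CPM had a ratio that low.

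Since Ncf1 and Ncf4 went in opposite directions, their ratio to each other necessarily differed by more than either gene alone. It restates the same counts in a form free of scaling. In the TAC library there were 0.867 counts of Ncf1 for each count of Ncf4, and in the dioscin library 6.30, a ratio 7.26 times as high (4.30 to 12.4) that does not depend on scaling. Against Cybb, Ncf1 was 1.89 times as high in the dioscin library (1.33 to 2.68). Cybb against Ncf4 was 3.85 times as high (2.35 to 6.43).

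Promoter windows of Cybb and Ncf1 are shown because these subunits of 1 enzyme had different ratios. They are the 250 bases before the RefSeq start on GRCm38.p6, read 5′ to 3′ on the strand of the gene, for Cybb chrX:9469325-9469574 and for Ncf1 chr5:134229626-134229875, both on the minus strand. Capitals mark matches to 2 of 4 motifs searched on both strands, TTTC followed after any 2 bases by TTTC (the interferon-stimulated response element) and TGANTCA (the AP-1 site).
Cybb: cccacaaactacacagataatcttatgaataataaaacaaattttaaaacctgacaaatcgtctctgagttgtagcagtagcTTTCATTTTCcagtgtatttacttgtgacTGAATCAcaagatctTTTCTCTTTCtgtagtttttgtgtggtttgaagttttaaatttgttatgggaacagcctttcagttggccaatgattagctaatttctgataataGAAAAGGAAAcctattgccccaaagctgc
Ncf1: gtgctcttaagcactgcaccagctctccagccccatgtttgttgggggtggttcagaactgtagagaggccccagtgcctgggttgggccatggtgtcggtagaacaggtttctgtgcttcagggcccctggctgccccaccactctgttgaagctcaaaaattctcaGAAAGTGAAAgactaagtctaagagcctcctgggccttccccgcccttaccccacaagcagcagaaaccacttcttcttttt
The Cybb window held 3 matches to the interferon motif and 1 to the AP-1 motif, and the Ncf1 window held 1 match to the interferon motif. Of all 32851 windows of this length, 2.98% held the interferon motif and 6.75% the AP-1 motif. The other 2 motifs, GAGGAA (the PU.1 core, in 23.3% of windows) and ACGTG (the hypoxia response core, in 16.6%), had no match in either. Windows were found for 5 of the 9 genes. Those of Cyba and Nox4 held none of the 4 motifs, and that of Nos1 held 1 GAGGAA match. The windows of Cybb, Nos1 and Nox4 lie inside the GENCODE M21 span of their gene. They precede an internal start, and the bases before the outer start of these genes were not searched. The matches are letters in a window, not sites shown to be bound.

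Among the nitric oxide synthases, Nos2 was lower in the dioscin library and Nos3 lay within 2-fold. Nos2 (ENSMUSG00000020826.9 in the count tables; chromosome 11, 78920787 to 78960254 on the plus strand in GENCODE M21, which holds an earlier version of the gene model) had 266 counts with TAC alone and 85 with dioscin. Its level went from 15.4 to 4.97 CPM, 3.09-fold lower (2.42 to 4.01), and 3.40% of genes at or above 1 CPM had a ratio as low. Nos3 (ENSMUSG00000028978.12; chromosome 5, 24364810 to 24384474, plus strand) had 2043 and 1632 counts, 118 and 95.3 CPM. The ratio of Nos3 was 0.806 (0.755 to 0.861). A non-coding gene on the opposite strand, Gm15587, covers 25.2% of the exonic length of Nos3 and had 848 and 684 counts, and Atg9b covers 7.12% and had 133 and 55, with the same limit of strand as for Ncf1. Nos1 (ENSMUSG00000029361.18; chromosome 5, 117781032 to 117958840, plus strand) had 6 counts with TAC alone and 2 with dioscin, 0.347 and 0.117 CPM. A difference in Nos1 was not detectable at this depth, with a ratio of 0.388 and an interval of 0.0332 to 1.88.

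Nos3 made up most of the synthase transcripts in both libraries. Per kb of exon, its part of the summed level of the 3 synthases was 89.0% with TAC alone and 95.3% with dioscin. That of Nos2 was 10.9% and 4.65%, and that of Nos1 0.0969% and 0.0433%. As a share of counts, Nos3 had 88.3% in the TAC library (exact 95% interval 86.9 to 89.5) and 94.9% in the dioscin library (93.8 to 95.9). The number of Nos3 counts for each Nos2 count was 7.68 with TAC alone and 19.2 with dioscin, 2.50 times as high (1.93 to 3.26).

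Xdh (ENSMUSG00000024066.9; chromosome 17, 73883895 to 73950196, minus strand) had the most counts of the 9 genes, with 3394 with TAC alone and 5832 with dioscin. Its level was 197 and 341 CPM, a ratio of 1.73 (1.66 to 1.81). This lies inside the 2-fold limit although the interval is narrow, and with a limit of 1.5-fold, under which 20.3% of all genes were called higher and 17.9% lower, Xdh was called higher. There were 1.66 Xdh counts for each Nos3 count with TAC alone and 3.57 with dioscin, 2.15 times as many (1.99 to 2.33).

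**Figure D3:**
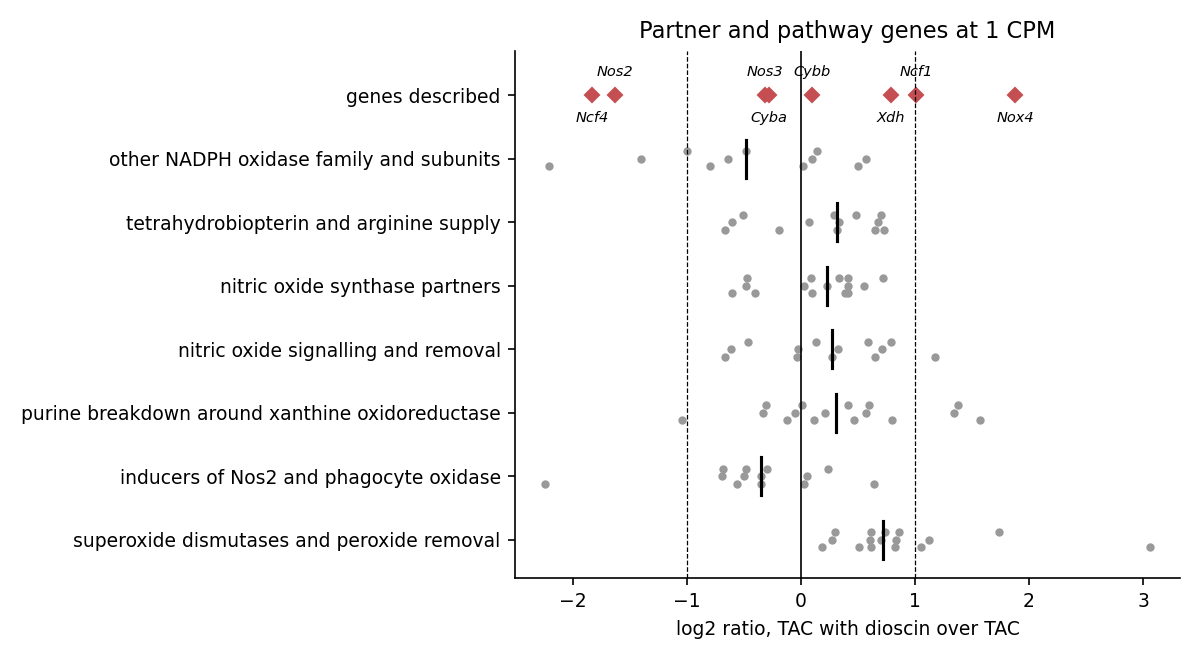
Log2 ratio of the dioscin over the TAC library for the genes of 7 partner and pathway lists at or above 1 CPM (grey points, 1 per gene) and for 8 of the 9 genes described (red diamonds). Black bars are list medians and dashed lines mark 2-fold. The list medians lie between -0.48 and 0.72, and Nox4 and Ncf4 lie beyond the 2-fold lines on opposite sides.

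Of 16 other genes of the NADPH oxidase family and its regulators, 11 reached 1 CPM. None of these was higher, 2 were lower, and the median log2 ratio was -0.48, or 0.02 with a filter of 5 CPM. With scaling by total counts or by DESeq2 size factors, 3 were lower. The gene added was Vav1, named after its values were seen, with 119 and 59 counts. Its ratio in the main scaling was 0.502 (0.360 to 0.689). Nox1, a catalytic subunit abundant in colon, had 86 and 32 counts, 2.64-fold lower in the dioscin library (1.76 to 4.13). Duox1, a dual oxidase with a peroxidase-like domain, had 39 and 8 counts, 4.61-fold lower (2.23 to 11.97). Both were under 5 CPM in each library, and with that filter neither was called. Duox1 reached 1 CPM only in the TAC library, at 2.26 and 0.467 CPM, so it could not have been called higher. Of the 4 catalytic subunits at or above 1 CPM in either library, Nox4 was called higher, Nox1 and Duox1 lower, and Cybb was not called. Rac1, a GTPase that takes part in oxidase activation, had a ratio of 1.42 (1.33 to 1.51), and Rap1a, a GTPase found with the membrane subunits, one of 1.07 (0.983 to 1.17). Nox3 and Noxa1 had no count in either library, which allows up to 0.174 CPM with TAC alone and 0.175 CPM with dioscin.

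No gene on the lists that feed and steer nitric oxide synthases was called. Of 17 genes of cofactor and arginine supply, 13 reached 1 CPM (median log2 ratio 0.32). Spr, which completes the cofactor tetrahydrobiopterin, had a ratio of 1.60 (1.42 to 1.80), and Pts, the enzyme before it, one of 0.658 (0.586 to 0.738). Ddah2, which is classed with enzymes that clear methylated arginines, was at 1.05 (0.932 to 1.18). Of 16 binding partners of the synthases, 15 reached 1 CPM (median 0.23). Cav1, the caveolin that holds the endothelial synthase inactive, had a ratio of 1.33 (1.29 to 1.37), and the chaperone Hsp90ab1 one of 1.47 (1.43 to 1.51). Calm2, a gene of the calmodulin that activates the synthases, stood at 1.34 (1.25 to 1.43).

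Downstream of nitric oxide, 1 of 13 measured genes was higher and none was lower (median 0.27). It was Pde1a, a phosphodiesterase that calcium and calmodulin activate, 2.26-fold higher (1.73 to 2.99). Gucy1a1, a subunit of the nitric oxide receptor guanylyl cyclase, had a ratio of 1.57 (1.42 to 1.73). Mb, myoglobin, which binds oxygen and oxidises nitric oxide, had 1.64 (1.63 to 1.65). Around Xdh, 16 genes of purine breakdown and of the molybdenum cofactor were measured, of which 3 were higher and 1 was lower (median 0.31). The aldehyde oxidases Aox1 and Aox3, which share their cofactors with Xdh, were 2.54-fold (2.35 to 2.75) and 2.98-fold (1.80 to 5.30) higher, the latter at under 5 CPM. Adk, adenosine kinase, was 2.60-fold higher (2.24 to 3.03), and Ampd2, an AMP deaminase, was 2.05-fold lower (1.75 to 2.42).

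Genes that induce Nos2 and the phagocyte oxidase had a median log2 ratio of -0.35 over 13 measured, with 1 lower and none higher. Il1b, interleukin-1 beta, had 78 and 16 counts, 4.72-fold lower (2.80 to 8.87). It reached 1 CPM only in the TAC library, at 4.52 and 0.935 CPM, so it could not have been called higher. Il1b was also under 5 CPM in each library, so that a filter at that level left no call on this list. Tnf, named after its values were seen, had 17 and 6 counts, at 0.984 and 0.351 CPM, and was under the filter. With scaling by total counts, by TMM without mitochondrially encoded genes or with no filter, Tnf was called too, so that 2 were lower. In the 2 scalings it too passed the filter through the TAC library alone. Irf1, an interferon-induced factor that acts on the Nos2 promoter, had a ratio of 0.624 (0.565 to 0.688), and Nfkb1 one of 0.784 (0.710 to 0.865). Ifngr1, a chain of the interferon gamma receptor, had a ratio of 1.18 (1.09 to 1.28), and Tlr4, a receptor for bacterial lipopolysaccharide named after its values were seen, one of 1.56 (1.26 to 1.94). Ifng, named after its values were seen, had 0 and 2 counts. The enzymes that remove superoxide and peroxide had 4 of 16 higher and none lower (median 0.72). Among them Gpx3, a secreted glutathione peroxidase, had a ratio of 8.32 (7.99 to 8.67) and Cat, catalase of peroxisomes, one of 3.33 (3.05 to 3.65). Mitochondrial Sod2 was 2.08-fold higher (1.99 to 2.18), or 1.96-fold and not called with scaling by total counts, and mitochondrial Prdx3 2.17-fold (1.97 to 2.41).

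**Figure D4:**
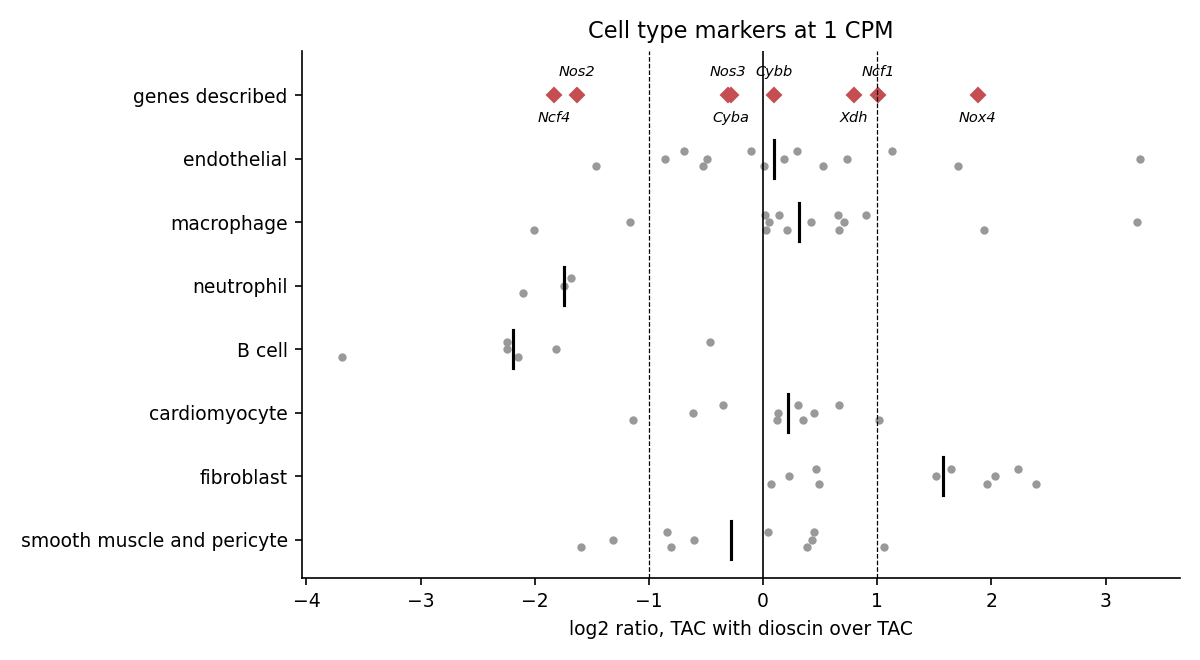
Log2 ratio of the dioscin over the TAC library for markers of 7 cell types at or above 1 CPM (grey points, 1 per gene, black bars at the medians) and for 8 of the 9 genes described (red diamonds). Dashed lines mark 2-fold. Ncf4 and Nos2 lie near the 3 neutrophil markers that passed the filter, S100a8 of them through the TAC library alone, and Nox4 lies within the range of the fibroblast markers.

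Across the lists of markers of cells that can carry these transcripts, ratios went in both directions. Of 14 endothelial markers, 3 were higher, 1 was lower and the median ratio was 1.07, with a summed level of 2488 CPM with TAC alone and 2721 CPM with dioscin. The ratio of Nos3 lay above 5 and below 9 of these markers, and that of Xdh above 11 and below 3. Plvap, a protein of fenestrated vessels, was 9.85-fold higher (8.34 to 11.8), Vwf, the adhesive protein that endothelium stores, 3.27-fold (3.08 to 3.47) and Pecam1, a junction protein, 2.19-fold (2.11 to 2.28). Egfl7, a protein that endothelium secretes, was 2.75-fold lower (2.63 to 2.88). The part of the endothelial markers in the values of Nos3 and Xdh was not tested.

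Of 14 macrophage markers, 2 were higher and 2 lower, with a median ratio of 1.25 and summed levels of 294 and 482 CPM. The higher ones were Lyve1, with 131 and 1260 counts, and Cd163, with 253 and 961, both taken here as macrophage markers. Which cells carried these 2 transcripts was not tested. Ncf1 lay above 12 of the 14, Cybb above 5 and Cyba above 2, while Ncf4 and Nos2 each lay above 1. That marker was Ccr2, the receptor of recruited monocytes, with 285 and 70 counts. Fcgr1, a high-affinity antibody receptor, was the other marker that was lower, at 2.24-fold (1.54 to 3.36). The neutrophil markers summed to 20.4 CPM with TAC alone and 6.08 CPM with dioscin. Of the 12, S100a9 and Csf3r reached 1 CPM in both libraries, with ratios of 0.233 and 0.298 beside 0.282 for Ncf4 and 0.324 for Nos2. S100a8 reached it with TAC alone, at 2.32 and 0.701 CPM, and the other 9 did not. The median log2 ratio was -1.75 over the 3 that passed the filter and -0.92 with no filter on low counts. Ly6g and Elane were at 0 counts in both libraries, and Mpo and Camp in the TAC library. B cell markers summed to 46.8 and 18.8 CPM and were lower in 5 of 6 cases, or in 2 with a filter of 5 CPM. Cd79a, Cd79b and Pax5 among them reached 1 CPM in the TAC library only. The part of neutrophils, monocytes and B cells in the lower Ncf4 and Nos2 was not tested.

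Among 10 fibroblast markers, 6 were called higher and 0 lower, with summed levels of 1171 and 3469 CPM. With a filter of 5 CPM, 5 were higher and 0 lower. Pdgfrl reached 1 CPM only in the dioscin library, at 0.984 and 4.73 CPM, so it could not have been called lower. The ratio of Nox4 lay above 6 and below 4 of the 10 markers, between the lowest marker ratio of 1.05 and the highest of 5.25. Of 10 smooth muscle and pericyte markers, 1 was higher and 2 were lower (summed levels 1539 and 1486 CPM), and Nox4 lay above all 10. Of 10 cardiomyocyte markers, 1 was higher and 1 lower, with summed levels of 53000.1 and 54737.6 CPM. The higher gene of each list, Cnn1 and Actn2, lay at 2.08-fold and 2.02-fold and was not called with scaling by total counts, nor was Actn2 with DESeq2 size factors. The part of fibroblasts, and that of the atrial, mesothelial and fat tissue in the dioscin library, in the higher Nox4 was not tested.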

How the data were processed

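RNA was taken from frozen hearts with Trizol and libraries were made with the Illumina TruSeq RNA kit, per the labels' protocols. The deposited files hold raw read counts for each gene, which the authors made with HISAT2 2.1.0 and HTSeq on mm10, per the submitters' processing notes. Not given in the sources used here are the HTSeq version, annotation release and strand setting. Library sizes leave out the 5 HTSeq summary lines. In the TAC and dioscin libraries respectively, reads in no gene were 30.04% and 30.03%, ambiguous reads 1.49% and 1.39%, reads of low quality 1.48% in both, unaligned reads 2.59% and 2.17%, and multiply aligned reads 38.2% and 36.5%.

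Symbols, exons and coordinates came from GENCODE M21 (GRCm38), to which 55141 identifiers matched without version. Counts were scaled with TMM factors (edgeR 4.0.16, R 4.3.3). Log2 ratios had 0.5 added to both counts. Ratios carry exact 95% Clopper-Pearson intervals and levels exact Poisson intervals (scipy 1.17.1), which cover counting error only. Within-library ratios of a pair of genes carry exact conditional intervals of the odds ratio. The script that makes the calls was tested on simulated data, which checks the computation and not the calls. Alternatives were scaling by total counts, by DESeq2 1.42.0 size factors or by TMM without the 37 mitochondrially encoded genes, other filters, folds and pseudocounts, and another gene length.

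Named genes were all 9 described and, of each list, up to 4 chosen by the interval limit farthest from 1 among those called, then by abundance. Genes were not named for likeness of pattern, since 2 libraries give each gene a single ratio. The genes and lists were chosen with earlier results of these data known. A few genes of the pathway and marker lists are not reported here and were left out of the lists.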

Additional observations from a re-analysis of the deposited data

How the results depend on the processing

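Scaling by total gene counts or by DESeq2 size factors left 1 of the 9 genes called higher, Nox4, since Ncf1 dropped to a ratio just under 2, as it did with a pseudocount of 5 (log2 ratio 0.97). Nox4 was called higher, and Nos2 and Ncf4 lower, under all 7 alternatives in which calls were made, 1 of them, the calls with a pseudocount of 5, chosen after seeing the data. Not all of the 7 could have changed these calls. Using no filter or a fold of 1.5 can add calls but not remove any. At the filter of 5 CPM, Nox4 and Ncf1 passed through the dioscin library alone, and Nos2 and Ncf4 through the TAC library alone. None of these 4 genes could then have been called in the other direction. Scaling by total counts moved the log2 ratio of Xdh to 0.71, outside its counting interval. A fold of 1.5 added Xdh, so that 3 were higher, beside 3187 of all genes higher and 2815 lower. A filter of 5 CPM left 1045 of all genes higher and 695 lower, against 1655 and 1377. Over the 4 alternatives of scaling and pseudocount, the log2 ratios ranged from 1.75 to 1.88 for Nox4, from 0.93 to 1.01 for Ncf1, from -1.71 to -1.58 for Nos2 and from -1.91 to -1.67 for Ncf4. With the longest coding transcript as gene length, a choice that for the share of Nox4 was also made after seeing the data, 5 of 9 genes kept their place in the order of levels with TAC alone and 7 with dioscin. No paired analysis was possible because each group has 1 library. Nos1, at 6 and 2 counts, is limited by depth.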
